A study of Mus musculus with 2 samples.

Results

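Memory-like CD8 T cells were CD8+ T cells that carried RNA of Samd3, Cxcr3, Eomes or Ccl5 and little RNA of cytotoxic granule genes. They were picked from single-cell transcriptomes by UMIs, the molecular barcodes that count captured RNA molecules. A cell was a member if it had at least 1 UMI of Cd3d, Cd3e or Cd3g, at least 2 UMIs of Cd8a and Cd8b1, 0 UMIs of Cd4, at least 2 UMIs summed over Samd3, Cxcr3, Eomes and Ccl5 (the memory sum), and at most 1 UMI summed over Gzma, Gzmb, Gzmk, Klrg1 and Cx3cr1 (the granule sum). Of 13772 cells that passed the quality filter (500 or more genes and at most 10% mitochondrial UMIs), 1729 were members, 859 from the WT mouse and 870 from the DKO-severe mouse.

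The cells came from 1 Foxp3Cre WT mouse and 1 DKO-severe Foxp3-Cre Tet2/3fl/fl mouse, both 14 weeks old, as TCRβ+ cells of spleen pooled with cervical and inguinal lymph nodes. Cre was expressed from Foxp3, the gene that defines regulatory T cells, so the deletion of floxed Tet2 and Tet3 was aimed at that lineage and not at CD8+ cells. Cre activity in the CD8+ cells was not measured here, and the study describes Foxp3-Cre as prone to some expression outside the lineage. The DKO-severe label was given by the study to mice with strong enlargement of spleen and lymph nodes. With 1 mouse per genotype there was no replicate, no test was made, and genotype, individual and hashtag cannot be told apart. All intervals given are exact 95% intervals that cover counting error only.

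Memory CD8 T cells persist after activation and respond faster than naive cells. In mice, part of the memory-phenotype pool forms without infection in response to cytokines such as IL-15 and IL-4. These cells, often called virtual memory cells, are known for high CD44, high CD122 (the IL-2 and IL-15 receptor β chain, encoded by Il2rb) and the transcription factor EOMES, and for low CD49d (the α4 integrin, encoded by Itga4), whereas CD8 T cells that have met antigen usually carry more CD49d.

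The 2 deposited matrices held 7189 WT and 7161 DKO-severe barcodes, with no barcode in both. The median member held 7972 UMIs in WT and 11213 in DKO-severe, and sequencing depth and RNA content of a cell cannot be told apart here. Granule-positive cells had the opposite order, with medians of 6811 and 5773 UMIs. Since the gate reads raw UMIs, a cell with more UMIs passes its minimums more easily and its limits on Cd4 and granule UMIs less easily. Shares are therefore also given after each cell was thinned at random to 3800 UMIs, which loosens those limits. Levels are given as CPM, the UMIs of a gene in every 1000000 UMIs summed over the cells of a group, and a gene was called higher or lower between groups at a 2-fold ratio of CPM. Members were set beside 1570 CD8-gated cells with 0 UMIs of the 9 memory and granule genes (gate-negative cells, 1373 WT and 197 DKO-severe) and beside 497 CD8-gated cells with a memory sum of 2 or more and a granule sum of 2 or more (granule-positive cells, 41 WT and 456 DKO-severe).

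Ccl5, a chemokine that memory and effector CD8 T cells release, was the gate gene seen most often. It had a UMI in 84.7% of WT and 90.9% of DKO-severe members, and it alone brought 20.3% of WT and 10.2% of DKO-severe members past the gate. Eomes was found in 48.2% and 51.6%, Samd3, a gene of little known function, in 42.4% and 63.6%, and Cxcr3, a chemokine receptor for interferon-induced ligands, in 41.1% and 48.6%. Thinned to 3800 UMIs, 69.4% of WT and 80.2% of DKO-severe members had Ccl5, as did 25.0% and 16.3% of B cells, which should lack it and had median depths of 4844 and 5191 UMIs. For Samd3, Cxcr3 and Eomes the share of B cells was at most 8.33%, and the WT value rests on 16 B cells before thinning.

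The DKO-severe members lay deeper inside the gate than the WT members. Of WT members 31.7% had a memory sum of exactly 2, against 9.54% of DKO-severe members, and a sum of 6 or more in 43.4% and 73.7%. The median cell held 2 UMIs of Ccl5 in WT and 20 in DKO-severe, and the summed Ccl5 level was 1146 CPM (1122 to 1171) in WT and 2766 CPM (2733 to 2798) in DKO-severe. These are values of genes that chose the members and are given as a description. Samd3 stood at 93.2 and 124 CPM, Eomes at 97.2 and 90.3 CPM, and Cxcr3 at 67.3 and 62.1 CPM.

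**Figure D1:**
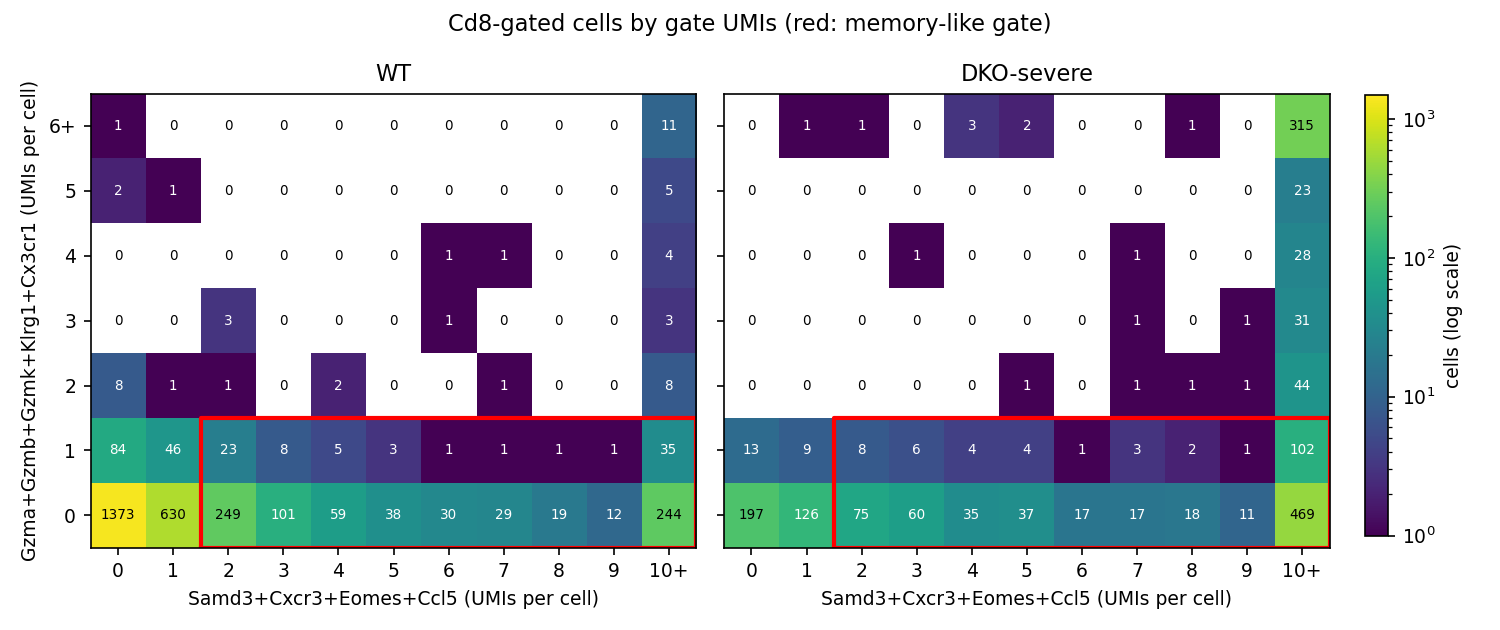
CD8-gated cells of each genotype by their UMIs of the 4 memory gate genes (x axis) and the 5 granule gate genes (y axis), with the number of cells in each square and the gate of the members in red. The WT panel holds 1373 cells at 0 of both sums, and the DKO-severe panel holds 469 members with a memory sum of 10 or more and a granule sum of 0, against 244 in WT.

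Just outside the gate, 676 WT and 135 DKO-severe cells had a memory sum of 1 with a granule sum of at most 1, and 12 WT and 48 DKO-severe cells had a granule sum of exactly 2. Within the gate, 78 WT and 131 DKO-severe members carried the 1 granule UMI that the rule allows.

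Members made up 28.2% (26.6 to 29.8) of 3046 CD8-gated WT cells and 52.0% (49.6 to 54.5) of 1672 CD8-gated DKO-severe cells. After thinning, the shares were 18.2% (16.8 to 19.7) and 47.2% (44.5 to 49.9). Of the thinned members, 484 of 507 in WT and 564 of 657 in DKO-severe were also members before thinning. The others entered only through thinning. As a share of all filtered cells, members were 12.3% (11.5 to 13.1) in WT and 12.9% (12.1 to 13.7) in DKO-severe, with overlapping intervals, and 8.05% (7.39 to 8.75) and 10.5% (9.73 to 11.3) after thinning. Gate-negative cells had the opposite order between genotypes, as they were 45.1% of the CD8-gated cells in WT and 11.8% in DKO-severe, and 19.6% and 2.91% of all filtered cells. Granule-positive cells were 1.35% and 27.3% of the CD8-gated cells. A share says nothing of the number of cells in the animal, which these libraries do not measure.

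Ly6c2, Gzmm and Ifngas1, the 3 markers of this cell type that the gate did not read, were higher in members than in gate-negative cells of both genotypes. Ly6c2, which encodes a form of the surface protein Ly6C found on memory CD8 T cells, stood at 782 CPM (762 to 803) in WT and 881 CPM (863 to 900) in DKO-severe members, and at 252 and 331 CPM in gate-negative cells. Gzmm encodes granzyme M, a protease of NK cells and innate-like T cells. Its level was 39.3 CPM (35.0 to 44.1) and 62.4 CPM (57.7 to 67.5) in members and 3.53 and 4.25 CPM in gate-negative cells. Ifngas1, a long noncoding RNA next to Ifng, stood at 136 CPM (128 to 145) and 117 CPM (110 to 124) in members and at 15.9 and 16.4 CPM in gate-negative cells. In each case the members of either genotype were above the gate-negative cells of both. None of the 3 was higher in members than in granule-positive cells of both genotypes. In granule-positive cells of WT and DKO-severe, Ly6c2 stood at 611 and 1217 CPM, Gzmm at 110 and 106 CPM, and Ifngas1 at 155 and 58.6 CPM. The cells were chosen by their expression and the markers with earlier results of these data known. These contrasts are therefore a description and do not test the label.

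Across the genome, 36 of 5477 genes (0.657%) were at least 2-fold higher in members than in gate-negative cells of both genotypes, and 11 (0.201%) were at least 2-fold lower. In WT alone 64 of 5824 genes (1.1%) were higher and 18 (0.309%) lower, and in DKO-severe alone 82 of 5667 (1.45%) were higher and 61 (1.08%) lower. The 197 DKO-severe gate-negative cells held RNA of granulocytes, with S100a8 at 3434 CPM against 24.6 CPM in WT gate-negative cells, and 8 of 8 myeloid markers at 20 or more CPM were lower in members there. The 15 highest, ranked by the smaller of the 2 genotypes' ratios, were Ctla2a, Gzmm, 1700025G04Rik, Ifngas1, Tbx21, Tmem163, Plek, Runx2, Ifitm10, Chsy1, Il2rb, Cd44, Il18rap, Hopx and Ahnak. Ctla2a, a cathepsin inhibitor of activated T cells, stood at 210 and 271 CPM in WT and DKO-severe members and at 13.4 and 9.11 CPM in gate-negative cells. Tbx21 encodes T-bet, a T-box factor that acts with EOMES in memory CD8 T cells, and was at 40.7 and 59.7 CPM in members and 2.71 and 9.11 CPM in gate-negative cells. Il2rb stood at 153 CPM (144 to 162) and 272 CPM (262 to 282) in members and at 43.9 and 76.6 CPM in gate-negative cells. Cd44, the classical surface marker of memory T cells, was at 76.2 and 94.1 CPM against 12.2 and 27.9 CPM. Il18rap, a chain of the IL-18 receptor, was at 59.9 and 63.5 CPM against 6.59 and 19.4 CPM, and its partner Il18r1 at 163 and 124 CPM against 76.1 and 36.5 CPM.

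The 10 lowest genes by the same ranking were Gria3, Ccr9, 1700062C10Rik, Itgae, Ifngr2, Rgcc, Ramp1, Igfbp4, Gm43698 and Plekho1. Ccr9, a receptor for homing to the gut and a marker of recent thymic emigrants and naive CD8 T cells, stood at 21.9 and 3.06 CPM in members and 84.1 and 47.4 CPM in gate-negative cells. Itgae, the αE integrin (CD103), was at 36.8 and 12.6 CPM against 112 and 69.3 CPM. Igfbp4, a gene of naive T cells, was at 55.9 and 32.6 CPM against 143 and 156 CPM. It was the single gene of 12 naive-state genes that was 2-fold lower in members of both genotypes. Lef1, a factor of naive and central memory cells, was at 838 and 547 CPM against 1086 and 894 CPM, and Tcf7, its relative, at 387 and 299 CPM against 427 and 355 CPM.

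By role, cytokine receptors were the list with the most genes higher in members than in gate-negative cells, 4 of 11 in WT (Il2rb, Il18r1, Il18rap and Ifngr1) and 4 of 12 in DKO-severe (Il2rb, Il18r1, Il18rap and Il10ra). Over all genes the share called higher was 1.1% in WT and 1.45% in DKO-severe. The lists were chosen with earlier results of these data known, so these counts are a description. Among transcription factors, Tbx21 and Runx2 were higher in both genotypes and Myb in WT, 3 of 16 and 2 of 17. Among effector molecules, 3 of 10 and 3 of 11 were higher, namely Gzmm, Ifngas1 and Xcl1, a chemokine for cross-presenting dendritic cells. Of homing and adhesion genes, Itgb1 and Cd44 were higher in both genotypes, while Ccr9 and Itgae were lower in both. None of 8 checkpoint receptors and none of 16 interferon-stimulated genes was called in either genotype. Median log2 ratios were 0.15 and 0.39 for cytokine receptors and 0.53 and 0.84 for effector molecules in WT and DKO-severe. Over all genes the medians were -0.01 and 0.02.

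**Figure D2:**
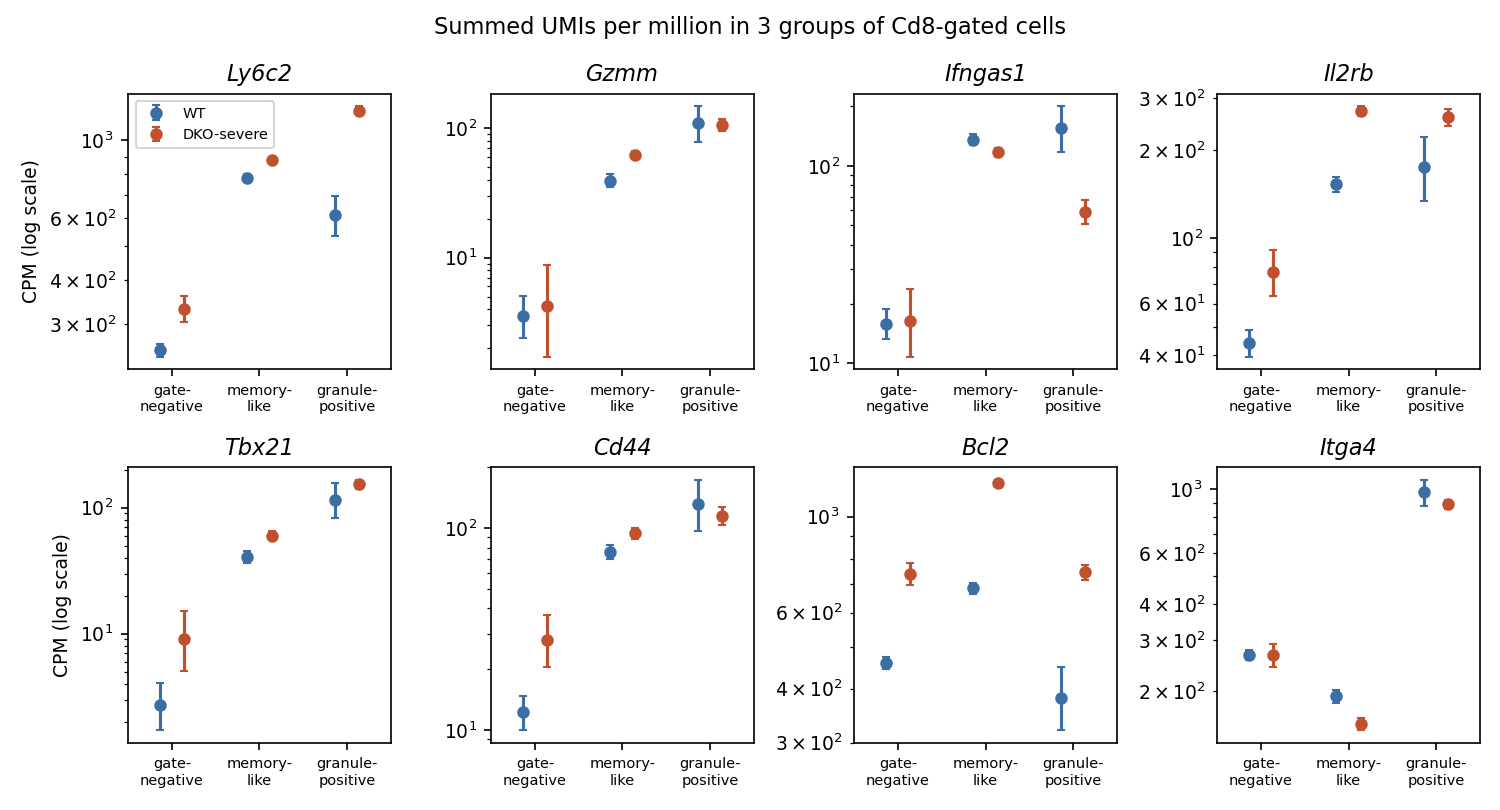
Levels (CPM, log axis) of 8 genes outside the gate in gate-negative, memory-like and granule-positive CD8-gated cells of WT and DKO-severe mice, with exact Poisson 95% intervals as bars. Ly6c2, Gzmm, Il2rb, Tbx21 and Cd44 were higher in members than in gate-negative cells, Bcl2 was higher in DKO-severe than in WT in the 3 groups, and Itga4 was lower in members than in either of the other groups.

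Members carried less RNA of the α4 integrin than the other CD8 groups. Itga4 stood at 191 CPM (182 to 202) and 154 CPM (146 to 161) in members, at 266 and 266 CPM in gate-negative cells, and at 976 and 889 CPM in granule-positive cells. The log2 ratio of members over granule-positive cells was -2.35 (-2.52 to -2.18) in WT and -2.53 (-2.62 to -2.44) in DKO-severe for Itga4. Zeb2 and Id2, factors of effector CD8 T cells, followed the same order between these groups: Zeb2 was at 5.35 and 18.5 CPM in members against 480 and 550 CPM in granule-positive cells, and Id2 at 73.8 and 91.1 CPM against 349 and 629 CPM. Bcl2, which protects cells from apoptosis, had the opposite order, with 682 and 1197 CPM in members against 381 and 743 CPM. The members and the granule-positive cells differ by the granule sum that split them, 73 of 6028 genes in WT and 55 of 5951 in DKO-severe (1.21% and 0.924%) were at least 2-fold higher in members, and 294 and 226 (4.88% and 3.8%) were at least 2-fold lower.

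Because T-bet and EOMES are T-box factors and Runx2 was among the leading genes, the promoters of the 6 markers and the 15 leading genes were searched for the T-box half-site AGGTGTGA and the Runx site TGTGGTT on both strands. Of 19 different genes, 18 matched a RefSeq promoter (build GRCm38.p6, 250 bases before to 50 after the start), with 24 promoters among them. Il2rb had no match. The T-box half-site was present in the promoter of Samd3, 1 of 24 promoters (4.17%) against 1.28% of all 32851 promoters of this length. The Runx site was present for Cxcr3, Il18rap, Ly6c2 and Runx2, in 5 of 24 promoters (20.8%) against 5.27% of all. A match of letters is a description and not a bound site. Promoters of 2 gate genes are shown, with the matched letters in capitals, which in both are on the strand opposite to the gene. The Samd3 promoter lies at chr10:26229457-26229756 on the plus strand and its match begins 15 bases before the start. The Cxcr3 promoter lies at chrX:101734098-101734397 on the minus strand and its match falls within the first bases of the transcript.
Samd3: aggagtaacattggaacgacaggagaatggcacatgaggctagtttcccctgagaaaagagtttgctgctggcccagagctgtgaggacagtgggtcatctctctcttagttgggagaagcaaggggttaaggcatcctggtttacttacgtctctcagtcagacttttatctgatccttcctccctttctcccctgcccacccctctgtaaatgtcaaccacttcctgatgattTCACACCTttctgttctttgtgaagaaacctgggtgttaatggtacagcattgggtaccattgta
Cxcr3: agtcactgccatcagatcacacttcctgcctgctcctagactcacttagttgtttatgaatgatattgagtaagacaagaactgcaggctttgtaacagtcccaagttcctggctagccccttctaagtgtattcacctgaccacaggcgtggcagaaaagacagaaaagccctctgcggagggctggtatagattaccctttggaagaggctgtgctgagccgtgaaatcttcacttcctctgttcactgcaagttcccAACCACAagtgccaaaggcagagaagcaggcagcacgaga

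Several genes outside the gate were higher in members with a higher memory sum. Levels summed over a class cannot tell a graded change in each cell from a mixture of different cells. Depth rose with the sum as well. The median cell held 6865.5 UMIs at a sum of 2 and 8831 at 6 or more in WT, and 9381 and 11561 in DKO-severe. In WT, Il2rb was at 43.9 CPM in gate-negative cells, 54.1 CPM in cells just outside the gate with a memory sum of 1, 71.9 CPM at a sum of 2, 102 CPM at 3 to 5 and 228 CPM (213 to 245) at 6 or more. In DKO-severe the level was 76.6 CPM in gate-negative cells, and 140, 180 and 306 CPM (293 to 319) in the 3 classes of members. Gzmm, by contrast, was at 4.26 and 5.90 CPM at a sum of 2 and at 75.4 and 77.0 CPM at a sum of 6 or more in WT and DKO-severe, so its level in members came mainly from the cells with high sums. Ly6c2 reached 608 and 638 CPM already at a sum of 2 and 914 and 937 CPM at 6 or more. Itga4 went down, from 237 and 242 CPM at a sum of 2 to 170 and 136 CPM at 6 or more.

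**Figure D3:**
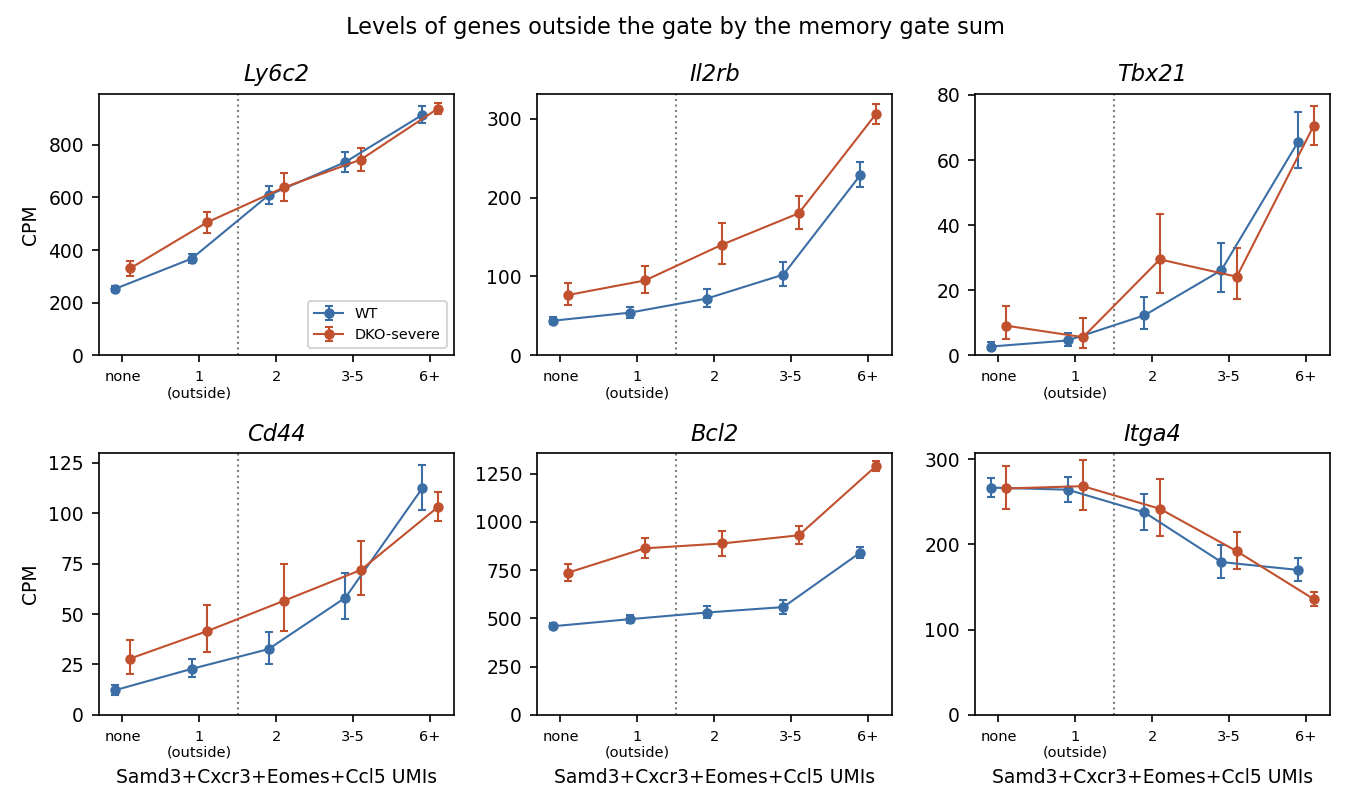
Levels (CPM, linear axis, exact Poisson 95% intervals) of 6 genes outside the gate in CD8-gated cells with 0 UMIs of the gate genes, with a memory sum of 1 (left of the dotted line, outside the gate), and in members with a memory sum of 2, 3 to 5, and 6 or more. Il2rb, Tbx21 and Cd44 were highest at a sum of 6 or more in both genotypes, Bcl2 was higher in DKO-severe than in WT in all 5 classes, and Itga4 was lowest at a sum of 6 or more.

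Members that passed the gate through Ccl5 alone had lower Ly6c2 and Il2rb than members with Ccl5 and another gate gene. Their Ly6c2 level was 549 and 689 CPM in the respective genotypes, against 846 and 899 CPM in members with Ccl5 and another gate gene and 773 and 903 CPM in members with no Ccl5. Their Il2rb level was 89.6 and 198 CPM against 183 and 290 CPM in members with Ccl5 and another gate gene and 91.4 and 167 CPM in members with no Ccl5. Gzmm stood at 8.15 and 23.6 CPM in members with no Ccl5 and at 12.0 and 32.8 CPM in those with Ccl5 alone. These levels rest on 9 and 20 UMIs against 16 and 28, and their intervals overlapped in both genotypes. Members with Ccl5 alone had Itga4 at 239 and 305 CPM, above the 177 and 133 CPM of members with Ccl5 and another gate gene.

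Between genotypes, 34 of 5744 genes (0.592%) were at least 2-fold higher in DKO-severe members and 23 (0.4%) were at least 2-fold lower, with a median log2 ratio over all genes of -0.05. The 10 highest were Gm15987, Ebf1, S100a8, Slpi, S100a9, Lyz2, Ngp, Lcn2, Camp and Rnf157. The 10 lowest were Ramp1, Rgcc, Mettl23, St8sia1, Itgae, Gm20275, Gm12840, Zc3h6, Prrg1 and Cd55. Gate genes, antigen receptor segments, immunoglobulin and sex-linked genes were left out of these rankings.

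Several of the highest genes had many of their UMIs in single cells. S100a8, S100a9, Lyz2, Ngp, Lcn2 and Camp are genes of granulocytes and monocytes, and 1 DKO-severe cell held 66.5%, 64.5%, 46.6%, 92.7%, 87.4% and 87.9% of their UMIs, while 1 cell held 93.3% of the UMIs of Slpi, a protease inhibitor of myeloid and epithelial cells. Ebf1 is the B cell lineage factor, and 1 cell held 18.3% of its UMIs. Members with 10 or more UMIs of 8 B cell, plasma cell and myeloid genes were then left out, a choice made after seeing the data. The 8 genes were Cd79a, Ms4a1, Cd74, Igkc, Jchain, Lyz2, S100a8 and S100a9, and 854 WT and 848 DKO-severe members were kept. Without these cells Camp had a log2 ratio of 0.024, and the other genes of this paragraph were below their WT level, from -0.18 to -0.61. Lyz2, S100a8 and S100a9 chose the cells left out, so their fall was built into that choice. The values are a description and not a separate check. Of the 34 higher and 23 lower genes, 21 and 21 were still called, out of 23 and 23 without those cells.

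Without those cells, and so named after their values were seen, the highest genes at 20 or more CPM included Rnf157, Setbp1, Klrc1, Chst11, Lrrk1, Coro2a, Klre1, N4bp1 and Tmc8. Among all members, Rnf157, which encodes a ubiquitin ligase, stood at 27.7 CPM (24.0 to 31.7) in WT and 121 CPM (114 to 128) in DKO-severe members, a log2 ratio of 2.13 (1.91 to 2.35), with no cell holding over 1.93% of its UMIs, and the ratio was 2.15 without the cells rich in other RNA. Klrc1, which encodes the inhibitory NK receptor NKG2A, was at 9.50 CPM (7.42 to 12.0) and 33.5 CPM (30.1 to 37.3), a log2 ratio of 1.82 (1.45 to 2.21) among all members and 1.84 without those cells. Gm15987, a noncoding gene antisense to Clec2g within the NK gene region of chromosome 6 (chr6:128951204-128975029, minus strand, GRCm38), had 10 and 431 UMIs in WT and DKO-severe members, or 1.34 and 42.5 CPM. At 3800 UMIs it was seen in 0.353% of WT and 11.4% of DKO-severe members, and in 58.3% and 68.7% of B cells. Its log2 ratio was 4.99 (4.10 to 6.06) in all members and 5.12 without the cells rich in B cell, plasma cell or myeloid UMIs. Without those cells its mean level was under 20 CPM, so it was not among the genes called. Reads shared with the gene on the other strand cannot be told from these files.

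**Figure D4:**
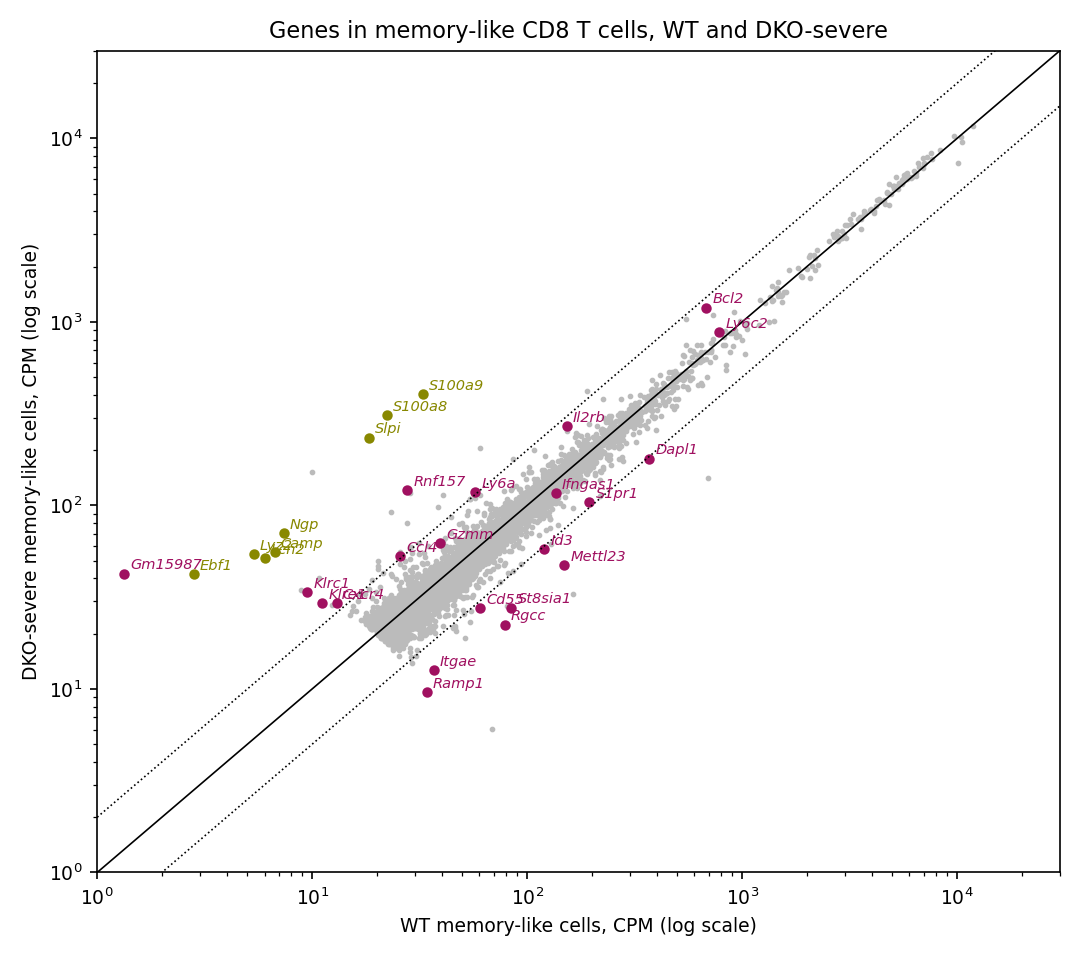
Levels in WT (x axis) and DKO-severe (y axis) memory-like cells on log axes, for genes with a mean of 20 or more CPM outside the gate, with lines at equal level and at 2-fold. Genes in olive are Ebf1, Slpi and the granulocyte and monocyte genes, of which 1 DKO-severe cell held 18.3% to 93.3% of the UMIs, and named genes in purple include Rnf157 (27.7 and 121 CPM), Bcl2 (682 and 1197 CPM), Ramp1 (34.1 and 9.57 CPM) and Rgcc (78.5 and 22.4 CPM).

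Of the genes lower in DKO-severe members, Ramp1, a partner chain of the receptor for the neuropeptide CGRP, stood at 34.1 CPM (30.0 to 38.6) in WT and 9.57 CPM (7.76 to 11.7) in DKO-severe, a log2 ratio of -1.83 (-2.19 to -1.49). Rgcc, a regulator of the cell cycle, was at 78.5 CPM (72.3 to 85.1) and 22.4 CPM (19.6 to 25.5), a log2 ratio of -1.81 (-2.04 to -1.59). St8sia1, a sialyltransferase of ganglioside synthesis, was at 84.4 and 27.7 CPM, Itgae at 36.8 and 12.6 CPM, and Mettl23, a methyltransferase, at 149 and 47.2 CPM. Ramp1, Rgcc and Itgae were also among the lowest genes of members against gate-negative cells, and these 2 contrasts share the members. Mettl23 overlaps Srsf2 and Mfsd11 in the annotation, and its reads may be shared with them.

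Over all members, transcription factors of memory and effector cells were mostly within 2-fold between genotypes. Of 16 list genes at 20 or more CPM, 15 were within 2-fold and Id3 was lower, with a median log2 ratio of -0.31. Id3, an inhibitor of E proteins that is high in memory precursors, stood at 120 CPM (112 to 128) in WT and 57.6 CPM (53.0 to 62.5) in DKO-severe members, a log2 ratio of -1.06 (-1.21 to -0.91). Tbx21 had a log2 ratio of 0.55 (0.35 to 0.76), Runx2 0.62 (0.49 to 0.75) and Runx3, a factor of the CD8 lineage, 0.56 (0.46 to 0.66). Lef1 was lower, with 0.62 less on the log2 scale, and Tcf7 with 0.37 less. Prdm1, the gene of BLIMP-1, had 24 and 25 UMIs in all members and was below the level filter.

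Cytokine receptors were all within 2-fold in the 12 list genes at 20 or more CPM, with a median log2 ratio of 0.04. The highest were Il10ra, a chain of the IL-10 receptor, at 16.7 and 32.9 CPM, with a log2 ratio of 0.98 (0.68 to 1.29), and Il2rb at 0.83 (0.73 to 0.93). Il7r, the receptor of the survival cytokine IL-7, stood at 593 and 694 CPM. The lowest was Il18r1, with 163 and 124 CPM. Among 7 survival genes none was called, and Bcl2 had the highest ratio, 0.81 (0.76 to 0.86), from 682 CPM (664 to 701) to 1197 CPM (1176 to 1218). Mcl1, another gene of the family, stood at 187 and 225 CPM.

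Of 16 homing and adhesion genes at 20 or more CPM, Cxcr4 was called higher, Itgae was called lower and 14 were within 2-fold, with a median log2 ratio of -0.02. Cxcr4, the receptor that guides cells to bone marrow, stood at 13.0 and 29.4 CPM, a log2 ratio of 1.18 (0.85 to 1.53). S1pr1, the receptor for exit from lymph nodes, was at 195 and 105 CPM with a log2 ratio of -0.89 (-1.01 to -0.78). Ccr9 and Ccr2, both under 20 CPM on average, had log2 ratios of -2.84 (-3.45 to -2.28) and 1.27 (0.87 to 1.68).

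Of 8 NK receptor genes at 20 or more CPM, Klrc1 and Klre1 were called higher and 6 were within 2-fold, with a median log2 ratio of 0.24. Klre1 stood at 11.1 and 29.4 CPM, a log2 ratio of 1.40 (1.05 to 1.77). Klrd1, which encodes CD94, the partner of NKG2A, was at 252 and 279 CPM, and Klrk1, which encodes NKG2D, at 24.1 and 29.1 CPM. Klrc2, below the level filter, had 61 and 213 UMIs. Cd160 reached 31.3 and 62.0 CPM, just under 2-fold. Ncr1, a defining gene of NK cells, had 0 and 3 UMIs.

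Effector molecules outside the gate were within 2-fold in 10 of 11 genes, with a median log2 ratio of -0.04. Ccl4, a chemokine of activated T cells, was called higher, at 25.5 and 53.0 CPM, but 1 DKO-severe cell held 20.5% of its UMIs. Nkg7, a granule protein, stood at 616 and 743 CPM, and Prf1, which encodes perforin, at 54.8 and 52.3 CPM. Among the Ly6 genes, Ly6a (Sca-1), a gene that interferon induces in T cells, was at 57.4 and 118 CPM with a log2 ratio of 1.04 (0.88 to 1.20), and Ly6c2 at 0.17 (0.12 to 0.22).

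In 4 further lists no gene was called in either direction: checkpoint and costimulatory receptors (0 of 8, median -0.24), interferon-stimulated genes (0 of 15, median 0.15), immediate early and antigen receptor response genes (0 of 10, median 0.08) and antigen receptor signalling genes outside the gate (0 of 11, median -0.12). Isg15 stood at 23.5 and 41.0 CPM, the highest ratio of the interferon list. Pdcd1, the gene of PD-1, had 33 and 53 UMIs. Of 12 naive-state genes, Dapl1 was called lower, at 369 and 180 CPM, the other 11 were within 2-fold, and the median was -0.47.

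Tet2 and Tet3, the genes floxed in the DKO-severe mouse, stood at 49.9 and 47.4 CPM and at 86.9 and 91.7 CPM in WT and DKO-severe members. Counts from the 3′ end do not show whether the floxed exons were present. Tet1 was at 14.3 and 5.92 CPM, with 107 and 60 UMIs. None of the 4 genes of DNA methylation at 20 or more CPM was called, and their median was -0.03.

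Several genotype ratios were closer to 0 among the members deepest inside the gate. In members with a memory sum of 6 or more, 373 WT and 641 DKO-severe cells, Tbx21 had a log2 ratio of 0.10 (-0.12 to 0.33), Gzmm 0.03 (-0.18 to 0.25) and Ly6c2 0.04 (-0.02 to 0.10), each with an interval that includes 0. Cd44 was at 112 and 103 CPM, a ratio of -0.13, and so on the other side of 0 from the 76.2 and 94.1 CPM of all members. Bcl2 was at 841 and 1287 CPM, a ratio of 0.61 (0.55 to 0.67), and Il2rb at 0.42 (0.30 to 0.54). Itgae, Dapl1, Klre1 and Ccl4 lost their call, with ratios of -0.81, -0.55, 0.73 and 0.79. Rnf157, Klrc1, Cxcr4 and Ly6a kept it, at 1.91, 1.14, 1.15 and 1.34, and so did Ramp1, Rgcc, Mettl23, St8sia1 and Id3, at -1.63, -1.39, -1.68, -1.38 and -1.38. Ifngas1 was lower in DKO-severe in these cells, at -0.73 (-0.87 to -0.58), against -0.22 (-0.34 to -0.09) in all members. In members with a memory sum of 2 to 5, 486 WT and 229 DKO-severe cells, 42 of 5757 genes were higher and 27 lower in DKO-severe. There Id3 was at -0.44 (-0.69 to -0.20), the transcription factor gene Ikzf2 at -1.23 (-1.52 to -0.95) and Xcl1 at -1.86 (-2.39 to -1.37), while Bcl2 was at 0.75 (0.67 to 0.84) and Cxcr4 at 1.14 (0.59 to 1.70). Both classes were chosen after seeing the data and match the cells by UMIs that still depend on depth.

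The same ratios were taken in the other CD8 groups. In gate-negative cells 64 genes (1.12%) were at least 2-fold higher and 34 (0.594%) lower in DKO-severe, and in granule-positive cells 182 (2.94%) and 164 (2.65%), the latter against only 41 WT cells. The gate-negative counts include RNA of other cells. Among the 64 were 8 myeloid and 4 B and plasma cell list genes, and among the 34 were 2 B and plasma cell and 4 red cell list genes. Rnf157 had a log2 ratio of 2.47 in gate-negative and 1.19 in granule-positive cells, Mettl23 -1.38 and -1.49, Bcl2 0.68 and 0.96, Il2rb 0.80 and 0.57, all in the direction seen in members. Ramp1, St8sia1 and Id3 were at -0.34, -0.32 and -0.24 in gate-negative cells, against -1.83, -1.61 and -1.06 in members. A difference between groups of cells was not tested, as there was 1 mouse per genotype.

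**Figure D5:**
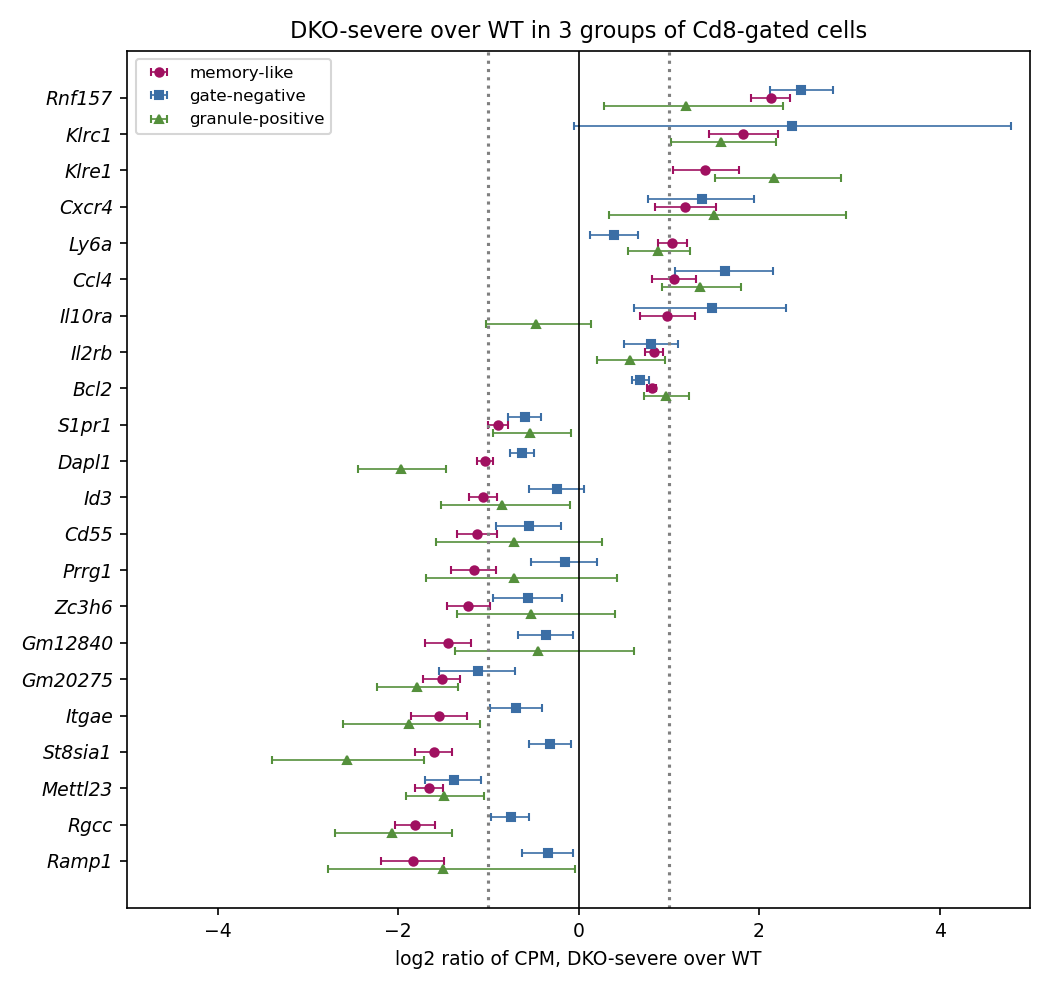
log2 ratio of CPM, DKO-severe over WT, for 22 named genes in memory-like, gate-negative and granule-positive CD8-gated cells, with exact conditional 95% intervals and dotted lines at 2-fold. Points with 3 or fewer UMIs in either genotype are left out. Rnf157, Bcl2, Il2rb and Mettl23 lay on the same side of 0 in the 3 groups, and Ramp1, Rgcc, St8sia1 and Id3 lay further from 0 in members than in gate-negative cells.

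RNA of other cell types was present among the members of both genotypes. At least 1 UMI of 10 genes of B cells, myeloid cells, innate-like T cells and regulatory T cells was present in 53.2% and 53.3% of WT and DKO-severe members, mostly of S100a8, S100a9 and Cd79b. At 3800 UMIs, S100a8 was seen in 8.70% and 6.11% of members and in 8.33% and 7.23% of B cells. The summed level of 12 B and plasma cell markers was 1080 and 877 CPM, of which Igkc made up 841 and 583 CPM, with 92.1% and 78.4% of its UMIs in 1 cell. The 12 myeloid and granulocyte markers summed to 144 and 966 CPM, and 4 of 5 at 20 or more CPM were called higher in DKO-severe members. Markers of innate-like and γδ T cells summed to 26.5 and 21.9 CPM, and Foxp3 had 5 and 10 UMIs. In DKO-severe members Penk, from a list chosen on these data to mark CD4 cells of that mouse, stood at 34.7 CPM against 8.83 CPM in WT. In DKO-severe 25.3% of its UMIs were in 1 cell. The part of these cells in the results was not tested beyond the values without them.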

How the data were processed

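TCRβ+ cells of 1 WT mouse (Hashtag 1) and 1 DKO-severe mouse (Hashtag 2) were profiled on the 10x Genomics platform (3′ chemistry, v3.1), and 10000 cells were loaded per the labels. The deposited matrices hold UMI counts per gene and barcode, made by the authors with Cell Ranger 7.1.0 per the file headers, on mm10 per the submitters' processing notes. The mRNA and hashtag libraries were shared, and the genotype of a barcode follows its deposited matrix. In 3 WT barcodes, none of them a member, the other hashtag had more UMIs.

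Cells were filtered, gated and summed per genotype with Python 3.11.15, numpy 2.4.6 and scipy 1.17.1. Genes with a mean of 20 or more CPM outside the gate were compared by the ratio of CPM, with sums under 3 UMIs set to 3. Intervals were exact Clopper-Pearson intervals for shares, exact Poisson intervals for levels and exact conditional intervals for ratios, all at 95%. The ratio script was tested on simulated data. Named genes were the markers and gate genes, list genes, the 10 highest and 10 lowest genotype ratios, the 15 highest and 10 lowest ratios over gate-negative cells, and the 5 most used Trbv segments. The members and lists were chosen with earlier results of these data known. One list holds genes chosen on these data to mark CD4 cells of this mouse that were taken to be Cre-targeted, which was not measured. Scrublet (scanpy 1.11.5) called 5 WT and 3 DKO-severe barcodes as doublets, too few to have worked, so the top 6% of scores were removed as an alternative instead. Coordinates are from GENCODE M21 (GRCm38), in which 32235 of 32285 gene IDs were found. No cell annotation by the authors was used, and 0 columns of per-sample values were left out. Other gates, filters and scalings were run as alternatives, and the ones chosen after seeing the data are named as such. Results for some genes are not reported here.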

Additional observations from a re-analysis of the deposited data

How the results depend on the processing

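No paired analysis was possible because each genotype had 1 mouse and no test was made. The share of members among CD8-gated cells, 28.2% in WT and 52.0% in DKO-severe, was 18.2% and 47.2% after thinning, 19.3% and 47.1% with a memory sum of 3 or more, 15.9% and 36.6% without Ccl5 in the gate, 25.6% and 44.2% with a granule sum of 0, and 13.2% and 24.3% without members holding any UMI of 10 genes of other cell types. It was higher in DKO-severe in each, and moved within its interval when doublet scores or a 5% mitochondrial limit were used. Genes higher in DKO-severe members (34) numbered 57 with the CPM total taken without immunoglobulin, haemoglobin, mitochondrial, ribosomal and receptor genes, 15 at 50 or more CPM and 99 at 5 or more. Genes lower (23) numbered 13 with a memory sum of 3 or more, 39 with that CPM total, 13 with 5 CPM added, 9 at 50 or more CPM and 94 at 5 or more. Genes higher in members than in gate-negative cells (36) numbered 58, 18 and 95 with that CPM total and these 2 filters, and genes lower (11) numbered 2 and 25 with the filters. A filter changes these counts by the number of genes it admits, and the other causes were not tested. List genes called between genotypes (15) numbered 9 with a granule sum of 0, 7 without members holding UMIs of other cell types, 26 with the smaller CPM total and 9 without the cells rich in B cell, plasma cell or myeloid UMIs. The 15 included the B cell, plasma cell and myeloid markers Cd74, Jchain, Lyz2, S100a8, S100a9 and Ngp, and some of these chose the cells left out. Over all genes, 0.592% were called higher and 0.4% lower in DKO-severe members in the main setting. Of the named genes past 2-fold between genotypes that were recomputed, those that turned direction were Ebf1, Slpi and genes of myeloid cells. Of those within 2-fold, Cd44 turned from 0.30 to -0.13 at a memory sum of 6 or more, and Il18rap from 0.084 to between -0.37 and -0.049 under 4 settings of the gate or of the cells left out. S100a9, Ngp and Lcn2 were at -0.019, -0.24 and -0.18 after thinning, S100a8, S100a9, Ngp and Lcn2 at -0.27, -0.27, -0.56 and -0.58 without high doublet scores, Ebf1, Slpi, Ngp, Lcn2 and Camp at -1.46, -0.29, -0.53, -0.066 and -0.14 without members holding UMIs of other cell types, and Ngp at -0.33 with a memory sum of 6 or more. Without the cells rich in such UMIs, Ebf1, S100a8, Slpi, S100a9, Lyz2, Ngp and Lcn2 were at -0.51, -0.39, -0.18, -0.28, -0.31, -0.61 and -0.59. S100a8, S100a9 and Lyz2 were among the genes that chose those cells. The last 2 settings were chosen after seeing the data. With 1 mouse per genotype, depth limits counting error only, and no setting speaks to the spread between animals.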

Other observations

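The members used many T cell receptor β variable segments. A single leading Trbv segment could be read in 210 of 859 WT and 198 of 870 DKO-severe members, and the effective number of segments was 12.6 and 13.2, from 19 and 21 segments seen. Trbv12-2 led in both, with 16.2% (11.5 to 21.9) and 15.2% (10.5 to 20.9) of these cells. Trbv16 followed in WT with 11.4% (7.46 to 16.5), against 6.06% (3.17 to 10.3) in DKO-severe, and Trbv29 followed in DKO-severe with 10.1% (6.28 to 15.2), against 4.76% (2.31 to 8.58) in WT. The intervals of Trbv12-2, Trbv16 and Trbv29 overlapped between genotypes. Trbv12-1 was read in 7.14% and 9.09% of these cells and Trbv13-2 in 8.57% and 7.07%. Segments with close relatives may share reads.

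RNA of dividing cells was seen in part of the members. Mki67, a marker of cycling cells, had a UMI in 2.44% of WT and 7.59% of DKO-severe members, at 26.2 and 33.2 CPM, and 1 WT cell held 39.3% of its UMIs there. These shares are of raw UMIs, of which the median DKO-severe member held more, so they are not matched for depth. Top2a, a topoisomerase of dividing cells, had a UMI in 7.57% and 12.2% of members. At 3800 UMIs it was seen in 1.65% and 3.92% of members and in 16.7% and 12.7% of B cells. B cells can divide themselves, so their share is not a background level, and the WT value rests on 16 B cells before thinning. None of 6 cell cycle genes at 20 or more CPM was called between genotypes, with a median log2 ratio of 0.23. The summed level of 5 red cell markers was 15.8 and 15.2 CPM in members, and that of 10 regulatory and helper T cell markers was 117 and 104 CPM, with none of 3 at 20 or more CPM called.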
